A study of Homo sapiens with 8 samples.

Results

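The miR-17 seed family is a group of microRNAs (miRNAs, short RNAs that guide repression of matching messenger RNAs) whose guide strands share the same seed, the bases at positions 2 to 8 that pair with targets. Its members here were the 10 entries of the deposited miRNA count table that name both arms of miR-17, miR-20a, miR-106b and miR-93 and the 5p arms of miR-106a and miR-20b, out of 2026 entries in all. The study, on miRNAs linked to cancer stem cells, sequenced small RNA of HCT116, a single established human colorectal cancer cell line. Its cells were grown as spheroids in serum-free medium with B27, N2, basic fibroblast growth factor and epidermal growth factor in low-attachment flasks. They were stained with an FITC-coupled antibody against CD44v6, a variant of the hyaluronan-binding protein CD44 made by alternative splicing, and dead cells were removed with propidium iodide. CD44v6-positive and CD44v6-negative cells sorted from such spheroids made up the groups, with 2 samples each, and neither group carries a drug or genetic change in its labels.

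A miRNA hairpin is cut into a duplex with a 5p and a 3p arm. One arm, the guide, is kept by an Argonaute protein, and the other, the passenger, is mostly degraded, although some hairpins yield both. The hairpins of this family sit in 3 related clusters, each copied from a long primary transcript. The transcripts of miR-17-92 and miR-106a-363 also carry hairpins of the miR-18, miR-19 and miR-25/92 families, and that of miR-106b-25 carries miR-25. The miR-17-92 cluster was among the first miRNA clusters described as oncogenic, is driven by MYC and E2F factors, and is commonly raised in colorectal tumours, and the guides of the family repress the cell cycle inhibitor p21.

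The 6 guides are shown to make visible the seed that joins them, which stands in capitals, and the few bases in which they differ. All 10 members matched a RefSeq mature sequence (GRCh38.p14).
miR-17-5p: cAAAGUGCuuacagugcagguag
miR-20a-5p: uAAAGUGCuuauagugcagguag
miR-106a-5p: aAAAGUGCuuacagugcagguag
miR-106b-5p: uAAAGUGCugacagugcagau
miR-93-5p: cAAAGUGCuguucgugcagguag
miR-20b-5p: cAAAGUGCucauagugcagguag
Each carries the seed AAAGUGC. With positions counted from 1 at the 5′ end and the base of miR-17-5p given first, miR-106a-5p differed from miR-17-5p by C1A alone. The other guides differed from miR-17-5p by C1U and C12U in miR-20a-5p, by U10C and C12U in miR-20b-5p, and by U10G, A11U, C12U and A13C in miR-93-5p. miR-106b-5p, at 21 nt the shortest against 23 nt for the other 5, differed by C1U, U10G and G20A over the 21 shared positions. The sources used here do not give the miRNA annotation, the mismatch setting or how reads with several matches were assigned, so the split of reads among these near-identical guides, above all between miR-17-5p and miR-106a-5p, is uncertain.

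The 4 passenger arms are shown because each has a seed of its own, again in capitals, that is shared neither with the guides nor among the 4.
miR-17-3p: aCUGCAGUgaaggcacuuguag
miR-20a-3p: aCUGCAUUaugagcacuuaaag
miR-106b-3p: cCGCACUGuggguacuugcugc
miR-93-3p: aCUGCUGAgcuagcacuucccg
Among the 1807 table entries with a RefSeq sequence, 7 (0.387%) had the seed AAAGUGC, which were the 6 guides and miR-519d-3p of the primate-specific cluster on chromosome 19. miR-519d-3p had 0 reads in every sample. A further 14 entries carried the shorter core AAGUGC within their first 8 bases, among them miR-302 and miR-372 family members known from pluripotent stem cells. Of these, 8 had any read, and no entry summed to more than 10 reads over the 4 samples. Among the entries with a sequence, all counted reads with the seed AAAGUGC thus came from the 6 guides. Entries without a RefSeq sequence could not be searched for it.

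The 6 hairpins lie at 3 places of GRCh38. In the miR-17-92 cluster, MIR17 (chr13:91350605-91350688) and MIR20A (chr13:91351065-91351135) are on the plus strand within an exon of the host transcript MIR17HG. In the miR-106b-25 cluster, MIR106B (chr7:100093993-100094074) and MIR93 (chr7:100093768-100093847) are on the minus strand in an intron of MCM7, which encodes a subunit of the replicative helicase. In the miR-106a-363 cluster, MIR106A (chrX:134170198-134170278) and MIR20B (chrX:134169809-134169877) are on the minus strand in an exon of the transcript AC002407.1 of GENCODE 29. The 3 clusters span 787, 515 and 901 bases and hold 6, 3 and 6 hairpins.

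The libraries of CD44v6-positive samples 1 and 2 held 919802 and 154481 counted reads, against 7880631 and 4592278 for CD44v6-negative samples 1 and 2. Both CD44v6-positive libraries were thus shallower than both CD44v6-negative ones, so depth cannot be told apart from the sort. Levels below are CPM (reads per 1000000 reads of a library, scaled by TMM), without scaling by length for RNAs of 21 to 23 nt. The limit that a count of 0 allows, 3 reads, was 3.24 and 15.6 CPM in the CD44v6-positive samples and 0.574 and 0.544 CPM in the CD44v6-negative samples. Limits and binomial intervals (exact Clopper-Pearson, 95%) cover counting error only, since PCR reads are not independent molecules. Of the miRNAs that mark colorectal epithelium, 7 of 7 were read in every sample, summing to 29850 and 27011 CPM in CD44v6-positive samples, against 47536 and 34749 CPM in CD44v6-negative samples. Markers of blood cells (6 of 6 in every sample) summed to 3775 and 3716 against 3123 and 1392 CPM, and markers of stroma, endothelium and muscle (5 of 7 in every sample) to 1094 and 5310 against 1670 and 1181 CPM. Neural markers (1 of 2 in every sample) summed to 837 and 438 against 1980.4 and 946 CPM, lower in both CD44v6-positive samples like the guides. Nearly all of this was miR-9-5p, since miR-124-3p had 1 and 0 reads against 12 and 2. The liver miRNA miR-122-5p was at 48.6 and 610 CPM in CD44v6-positive samples 1 and 2, against 4.59 and 3.99 CPM in the CD44v6-negative samples. No marker was at 0 in every sample, and the part of these foreign markers in the results below was not tested. Fewer cells that express a miRNA and less of it per cell cannot be told apart in such sorted bulk samples.

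All 6 guides had lower levels in CD44v6-positive cells with no overlap between the groups, although for miR-20b-5p this rests on 1 read in each CD44v6-positive sample and is not detectable at this depth. Summed, they were at 8702 and 3955 CPM in CD44v6-positive samples 1 and 2, against 41718 and 15817 CPM in CD44v6-negative samples 1 and 2. The group means were 6329 ± 3356 and 28768 ± 18315 CPM (SD, n = 2 each), a 4.55-fold lower level in CD44v6-positive cells, with groups that did not overlap although the spread within each was wide. Leaving out CD44v6-positive samples 1 and 2 in turn gave folds of 7.27 and 3.31, and leaving out CD44v6-negative samples 1 and 2 in turn gave folds of 2.50 and 6.59. As a share of all reads the guides made up 0.877% (95% interval 0.858 to 0.896%) and 0.491% (0.457 to 0.527%) in CD44v6-positive samples, against 2.77% (2.76 to 2.78%) and 1.90% (1.89 to 1.91%) in CD44v6-negative samples.

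edgeR's quasi-likelihood test with Benjamini-Hochberg adjustment over the 570 tested miRNAs called 0% of them at an adjusted p under 0.05, and 0 of the 10 members, all of which were tested. At an unadjusted p under 0.05 edgeR had 74 miRNAs higher and 100 lower, with 4 members among the lower ones. DESeq2 called 3 of 10 members lower, namely miR-17-5p, miR-20a-5p and miR-106b-5p, and none higher, where 5.25% of the miRNAs it tested were called lower, and limma-voom called no member. Of the 10 members, 8 had groups that did not overlap with the CD44v6-positive samples lower, miR-20b-5p with its single reads included, against 34.6% of all tested miRNAs, and 1 had non-overlapping groups with the CD44v6-positive samples higher, against 24.9%. The median log2 fold change of the 6 guides was -2.34 and ran from -3.11 to -1.11, that of the 4 passengers was -0.71, and that of all tested miRNAs was -0.31. With upper quartile scaling, which shifts all miRNAs by about the same amount, these medians were -2.01, -0.37 and 0.04.

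**Figure D1:**
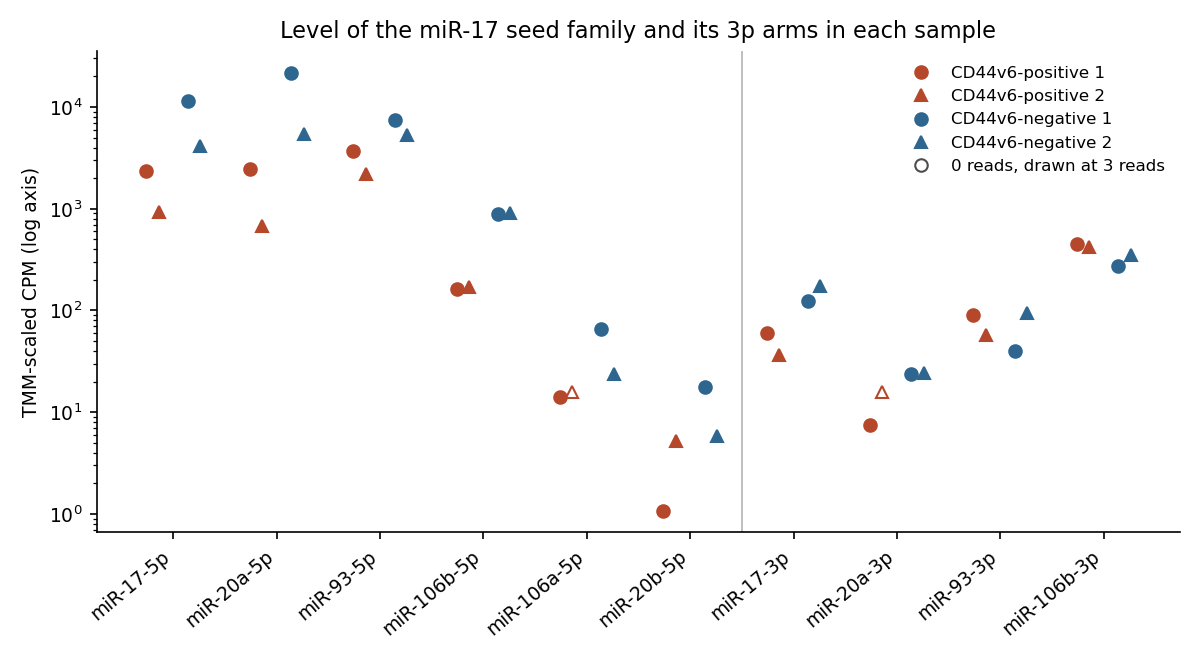
TMM-scaled CPM on a log axis for each of the 10 members in each of the 4 samples, with CD44v6-positive samples in red to the left of CD44v6-negative samples in blue, and circles and triangles for samples 1 and 2. Open symbols mark a count of 0, drawn at the level of 3 reads. The 6 guides, left of the grey line, lie lower in both CD44v6-positive samples by their counts, whereas among the 3p arms miR-106b-3p lies above and miR-93-3p overlaps.

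The miR-17-92 guides had the highest means of the family over all 4 samples. miR-20a-5p, which shares the targets of the family such as the E2F1 messenger RNA, had 2461 and 677 CPM in CD44v6-positive samples, against 21776 and 5452 CPM in CD44v6-negative samples. hsa-miR-17-5p, the name-giving guide, had 2357 and 928 CPM in CD44v6-positive samples, against 11508 and 4163 CPM in CD44v6-negative samples. In both guides sample 1 exceeded sample 2 within each group, and the groups did not overlap. Their log2 fold changes were -3.11 ± 0.91 for hsa-miR-20a-5p and -2.25 ± 0.71 for hsa-miR-17-5p (SE, edgeR adjusted p = 0.117 for each), with DESeq2 adjusted p of 0.00874 and 0.0455. Both values hang on single libraries. With CD44v6-negative sample 1, the deepest library, left out the values shrank to -1.72 and -1.27, and with CD44v6-positive sample 1 left out they were -4.43 and -3.19.

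The miR-106b-25 guides had differences of unequal size. hsa-miR-106b-5p, known to target p21, had 162 and 172 CPM in CD44v6-positive samples, against 890.05 and 914 CPM in CD44v6-negative samples. This was the tightest separation in the family, with means of 167 ± 7.15 and 902 ± 17.1 CPM (SD, n = 2 each). The CD44v6-positive values rest on 150 and 33 reads. In CD44v6-positive sample 2 a single read was 5.21 CPM, so the SD of 7.15 CPM from 2 values may understate the error. Its log2 fold change was -2.44 ± 0.49, the edgeR adjusted p was 0.0787 and the DESeq2 adjusted p 0.00305. With any 1 sample left out it stayed between -2.51 and -2.24. hsa-miR-93-5p, the other guide of that cluster, had 3707 and 2173 CPM in CD44v6-positive samples, against 7461 and 5259 CPM in CD44v6-negative samples. Its groups did not overlap either, but the difference was the smallest among the guides, at -1.11 ± 0.49 (edgeR adjusted p = 0.182). It ran from -1.67 without CD44v6-positive sample 1 to -0.57 without CD44v6-positive sample 2, and neither DESeq2 nor limma-voom called it.

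The miR-106a-363 guides were scarce. hsa-miR-106a-5p had 13 and 0 reads in CD44v6-positive samples, against 346 and 130 reads in CD44v6-negative samples, which is 14.0 and 0 CPM against 66.2 and 23.6 CPM. The count of 0 in CD44v6-positive sample 2 allows up to 15.6 CPM. hsa-miR-20b-5p had 1 read in each CD44v6-positive sample, against 92 and 32 reads in CD44v6-negative samples, or 1.08 and 5.21 CPM against 17.6 and 5.80 CPM. The level of CD44v6-positive sample 2 came close to that of CD44v6-negative sample 2, and with 1 read this separation is not detectable at this depth. The fitted log2 fold changes were -2.24 ± 1.05 and -2.50 ± 1.24 (edgeR adjusted p = 0.202 and 0.222), and at these counts their size is poorly known.

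Ordered by mean CPM over the 4 samples, miR-20a-5p was at rank 28 of the table, miR-17-5p at 44, miR-93-5p at 45, miR-106b-5p at 107, miR-106a-5p at 306 and miR-20b-5p at 456. In CD44v6-positive cells the order of the 3 abundant guides differed, with miR-93-5p at 2940 ± 1084, miR-17-5p at 1642 ± 1011 and miR-20a-5p at 1569 ± 1261 CPM. Across the CD44v6-positive samples the values of all 3 overlapped. Within each of these samples miR-93-5p was the highest, and the order of miR-17-5p and miR-20a-5p was not the same in both. In CD44v6-negative cells miR-20a-5p was at 13614 ± 11543, miR-17-5p at 7835 ± 5194 and miR-93-5p at 6360 ± 1557 CPM (SD, n = 2 each). These also overlapped across samples, although miR-20a-5p was the highest within each CD44v6-negative sample.

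Shares within the family need no scaling between libraries, although they were not corrected for base composition. miR-93-5p took 42.6 and 54.9% of the reads of the 6 guides in CD44v6-positive samples, against 17.9 and 33.2% in CD44v6-negative samples. miR-20a-5p took 28.3 and 17.1% in CD44v6-positive samples, against 52.2 and 34.5% in CD44v6-negative samples. Both sets of shares were apart between the groups, miR-93-5p being the most read guide in each CD44v6-positive sample and miR-20a-5p in each CD44v6-negative sample. The mean differences were 23.2 and -20.6 percentage points, positive minus negative, and kept their sign with any 1 sample left out. miR-17-5p took 27.1 and 23.5% in CD44v6-positive samples, against 27.6 and 26.3% in CD44v6-negative samples, and its 95% interval in CD44v6-positive sample 2 (20.5 to 26.6%) covered the lower CD44v6-negative value. miR-106b-5p took 1.86 and 4.35% against 2.13 and 5.78%, with overlapping groups. miR-106a-5p took 0.161 and 0% (the 0 allows up to 0.395%) against 0.159 and 0.149%, and miR-20b-5p 0.0124 and 0.132% against 0.0422 and 0.0367%. With 2 against 2 samples the exact two-sided permutation test cannot give a p below 0.333, which is the p of miR-93-5p and of miR-20a-5p, and adjusted over the 6 guides each p was 1.

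**Figure D2:**
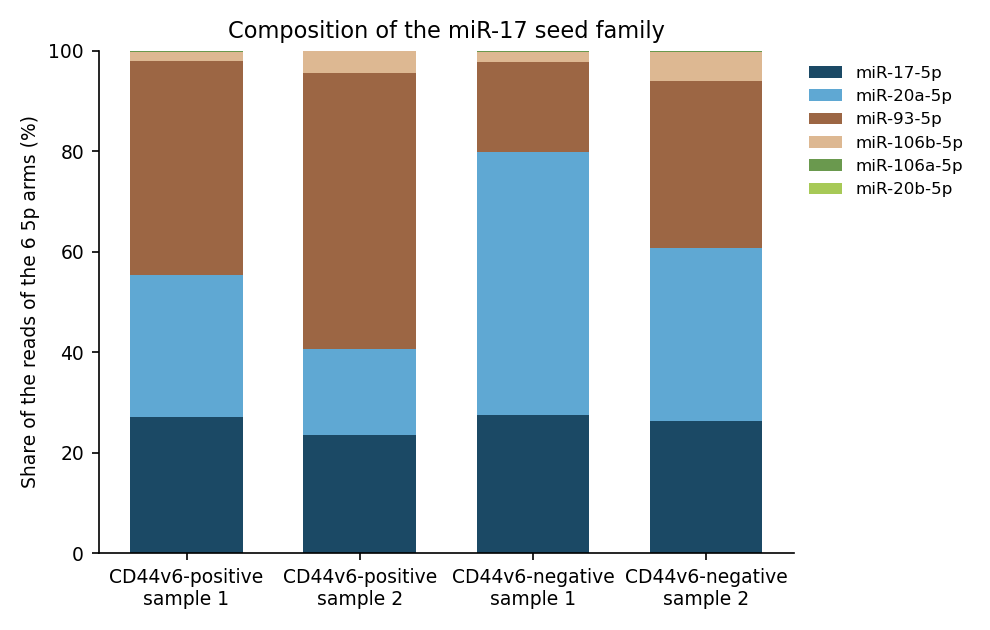
Share of each guide in the summed raw reads of the 6 guides, one stacked bar per sample, with CD44v6-positive samples left of CD44v6-negative samples. miR-93-5p (dark brown) fills 42.6 and 54.9% of the CD44v6-positive bars and 17.9 and 33.2% of the CD44v6-negative bars, and the guides of miR-106a-363 are too few to see.

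The ratio between clusters largely restates these shares and is not a separate result. It uses the same reads, and miR-93-5p made up most reads of the miR-106b-25 guides in every sample. The miR-17-92 guides (miR-17-5p with miR-20a-5p) had 1.25 and 0.685 reads per read of the miR-106b-25 guides (miR-106b-5p with miR-93-5p) in CD44v6-positive samples, against 3.99 and 1.56 in CD44v6-negative samples. The log2 ratio differed by -1.43 (exact two-sided permutation p = 0.333, the smallest possible, and 0.333 adjusted over 3 cluster pairs) and ran from -2.11 without CD44v6-negative sample 2 to -0.75 without CD44v6-negative sample 1. Guides of one cluster were also not in a fixed proportion. miR-20a-5p had 1.04 and 0.730 reads per read of miR-17-5p in CD44v6-positive samples, against 1.89 and 1.31 in CD44v6-negative samples. miR-93-5p had 22.9 and 12.6 reads per read of miR-106b-5p in CD44v6-positive samples, against 8.38 and 5.75 in CD44v6-negative samples. Neither pair of groups overlapped. By reads, miR-20a-5p and miR-106b-5p were each relatively scarcer in both CD44v6-positive samples than the other guide of their cluster. In the fit miR-20a-5p and miR-17-5p were at -3.11 and -2.25 on the log2 scale. With a correction for GC content (the share of G and C bases) they were nearly alike, at -1.93 and -1.83. miR-106b-5p and miR-93-5p went from -2.44 and -1.11 to -1.58 and -1.05. Ratios of reads between guides were not corrected for GC content.

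Relative to miR-17-92, the guides of miR-106a-363 differed by less. The log2 ratio of miR-17-92 to miR-106a-363 guides was 8.27 and 7.68 in CD44v6-positive samples, against 8.63 and 8.35 in CD44v6-negative samples, a difference of -0.52 (exact permutation p = 0.333). That of miR-106b-25 to miR-106a-363 guides was 7.95 and 8.23 in CD44v6-positive samples, against 6.64 and 7.71 in CD44v6-negative samples, a difference of 0.92 (exact permutation p = 0.333). Both turn on 14 reads of 2 miR-106a-363 guides in CD44v6-positive sample 1 and on 1 read in sample 2. They also depend on the 0.5 reads added to each sum. With 0 and 1 reads added instead, the difference for miR-17-92 was -0.20 and -0.74, and that for miR-106b-25 was 1.23 and 0.69. The reads of miR-106a-5p were 0.595% of those of miR-17-5p in CD44v6-positive sample 1 and 0 of 178 in sample 2, which allows up to 1.69%, against 0.575 and 0.566% in the CD44v6-negative samples. This nearly fixed share in the 3 samples with reads joins the 2 guides that differ by C1A alone, and whether reads of miR-17-5p were counted as miR-106a-5p was not tested. Without miR-106a-5p the difference between miR-17-92 and miR-106a-363 was -1.16 and that between miR-106b-25 and miR-106a-363 was 0.27, which then rest on miR-20b-5p.

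Among the family's passenger arms, miR-17-3p and miR-20a-3p of miR-17-92 lay lower in CD44v6-positive cells, and those of miR-106b-25 did not. This does not hold for miR-17-92 as a whole. Its partner arm miR-18a-3p had 124 and 172 CPM in CD44v6-positive samples, against 44.2 and 83.9 CPM in CD44v6-negative samples. miR-17-3p, processed opposite miR-17-5p, had 60.4 and 36.5 CPM in CD44v6-positive samples, against 125 and 175.9 CPM in CD44v6-negative samples. miR-20a-3p had 7.55 and 0 CPM in CD44v6-positive samples (7 and 0 reads), against 23.7 and 24.1 CPM in CD44v6-negative samples. Both were lower in each CD44v6-positive sample, with log2 fold changes of -1.59 ± 0.59 (edgeR adjusted p = 0.141) and -2.13 ± 0.91 (edgeR adjusted p = 0.174), although the 0 of miR-20a-3p allows up to 15.6 CPM. With a GC correction the values were -1.39 for miR-17-3p and -0.73 for miR-20a-3p. With 1 sample left out that of miR-20a-3p was as low as -9.45 without CD44v6-positive sample 1, a fit against 0 reads that gives no size, and as high as -1.43 without CD44v6-positive sample 2. hsa-miR-106b-3p had 454 and 422 CPM in CD44v6-positive samples, against 275 and 351 CPM in CD44v6-negative samples, the only member with both CD44v6-positive samples above, at 0.48 ± 0.48 (edgeR adjusted p = 0.541), a sign that turned to -0.17 with a GC correction. miR-93-3p had 90.6 and 57.3 CPM in CD44v6-positive samples, against 39.8 and 93.9 CPM in CD44v6-negative samples. These overlapped, and its log2 fold change of 0.17 ± 0.66 was under its standard error and changed sign with no filter on low counts and, to -0.21, with a GC correction. After the GC correction all 4 passengers had negative values, so these 4 were then apart by cluster in size and not in sign. The partner arm miR-18a-3p stayed positive, at 0.97.

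For miR-106b the more abundant arm was not the same in the 2 groups. The MIR106B hairpin is shown because its 5p arm (positions 12 to 32 of 82) and 3p arm (positions 52 to 73), both in capitals, are read from the same precursor and so carry the comparison.
MIR106B: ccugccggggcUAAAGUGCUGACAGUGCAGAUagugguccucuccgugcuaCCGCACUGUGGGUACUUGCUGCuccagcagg
The sequence is that of the minus strand of GRCh38.p14 from RefSeq. Its 5p arm made up 26.3% (95% interval 22.7 to 30.1%, 571 reads of both arms) and 28.9% (20.8 to 38.2%, 114 reads) in CD44v6-positive samples. In CD44v6-negative samples it made up 76.4% (75.3 to 77.4%, 6091 reads) and 72.2% (71.2 to 73.3%, 6980 reads). The more abundant arm was therefore the 3p arm in both CD44v6-positive samples and the 5p arm in both CD44v6-negative samples, and the counting intervals of the groups were far apart. The log2 ratio of 5p to 3p reads was -1.49 and -1.28 in CD44v6-positive samples, against 1.69 and 1.38 in CD44v6-negative samples. The difference of -2.92 ran from -3.08 to -2.76 with any 1 sample left out. The exact two-sided permutation p was 0.333, the smallest possible, and 0.667 adjusted over the 4 hairpins.

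In the other hairpins the 5p arm dominated in every sample. It made up 97.6 and 97.4% of miR-93 reads in CD44v6-positive samples, against 99.5 and 98.2% in CD44v6-negative samples, and the log2 ratio differed by -1.41 without overlap (exact permutation p = 0.333). That difference was -0.54 without CD44v6-negative sample 1. The 5p arm of miR-17 made up 97.5 and 96.2% in CD44v6-positive samples, against 98.9 and 95.9% in CD44v6-negative samples, and that of miR-20a 99.7 and 100% (130 of 130 reads) against 99.9 and 99.6%. Both overlapped between the groups, with differences of -0.62 and -0.69 (exact permutation p = 1 for each). Among the 4 hairpins of the family with both arms counted, the 5p share thus lay lower in both CD44v6-positive samples for miR-106b and miR-93. Cluster partners did not follow these hairpins by cluster. The log2 ratio of 5p to 3p reads of miR-18a, in miR-17-92, was 0.40 and -0.71 in CD44v6-positive samples, against 4.56 and 3.51 in CD44v6-negative samples, a difference of -4.19. That of miR-25, in miR-106b-25, was -5.91 and -3.31 in CD44v6-positive samples, against -8.56 and -6.68 in CD44v6-negative samples, a difference of 3.01 in the other direction.

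Across the table, 137 hairpins had both arms tested, and in 28.5% of them the ratio of 5p to 3p was lower in both CD44v6-positive samples, which here was so for 2 of 4 hairpins. The median difference over the 137 was -0.19, the most negative difference was that of the cluster partner miR-18a, and that of miR-106b was the fourth most negative. The more abundant arm differed between the groups in every sample in only 3 of the 137 hairpins, miR-106b, miR-330 and miR-550a, the last 2 named after their values were seen. The 2 arms of miR-106b also differ in base composition, with a GC content of 42.9% in the 5p arm and 63.6% in the 3p arm, and over the 115 hairpins with both sequences the arm difference had a Pearson r of 0.357 with the difference in GC content, as a description across hairpins of the same 4 libraries. A GC correction of each sample was applied in the fit and not to the read ratios. Its use to compare arms was chosen after seeing the data. The corrected log2 fold change of the 5p arm minus that of the 3p arm was -1.41 for miR-106b. For miR-93, miR-17 and miR-20a it was -0.83, -0.44 and -1.20. This is another measure than the read ratios, so the sizes do not compare directly. For miR-106b the fitted values of 5p and 3p were -2.44 and 0.48 without the correction, and -1.58 and -0.17 with it. The gap between its arms was thus smaller with the correction. For miR-20a the fitted values of 5p and 3p were -3.11 and -2.13 without the correction, and -1.93 and -0.73 with it, a gap that was not smaller.

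**Figure D3:**
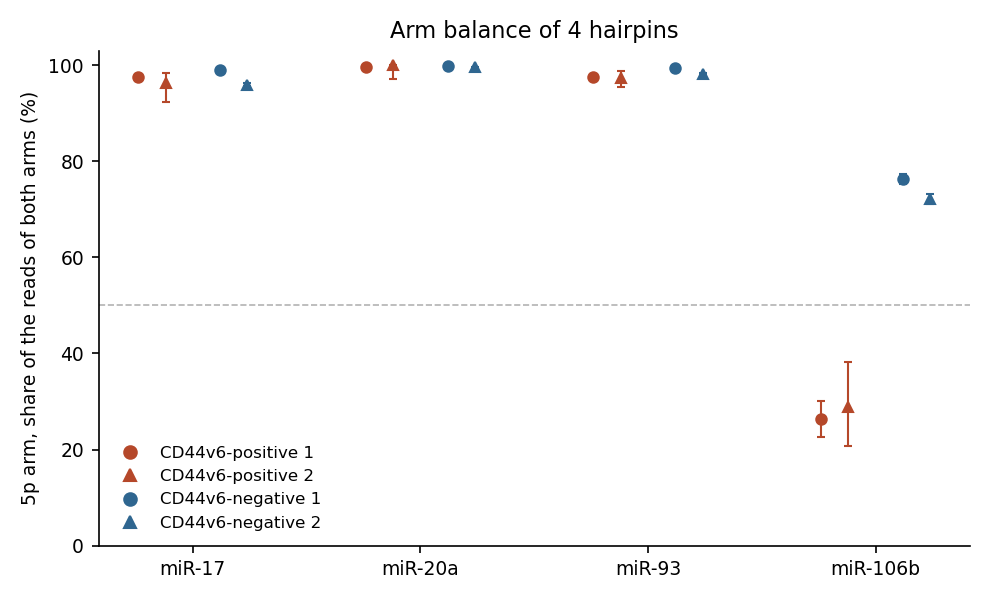
Share of 5p reads among the reads of both arms for 4 hairpins, with CD44v6-positive samples in red left of CD44v6-negative samples in blue and exact 95% binomial intervals for counting error. The dashed line marks equal arms. For miR-106b the CD44v6-positive samples lie at 26.3 and 28.9% and the CD44v6-negative samples at 76.4 and 72.2%, and the other hairpins lie above 95% throughout.

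Base composition moved with the fold change over the whole table. Among the 499 tested miRNAs with a sequence, the log2 fold change and the GC content of the mature miRNA had a Pearson r of 0.455, a description across miRNAs that share the same 4 libraries. The median log2 fold change was -1.62 for the 96 miRNAs under 40% GC, -1.12 from 40 to 45%, -0.38 from 45 to 50%, -0.05 from 50 to 55%, 0.38 from 55 to 60% and 0.86 for the 123 at 60% or more. The guides had a GC content of 39.1% in miR-20a-5p, 42.9% in miR-106b-5p, 43.5% in miR-106a-5p, 47.8% in miR-17-5p and miR-20b-5p, and 52.2% in miR-93-5p. Each of the 6 lay below the median of its GC range, miR-93-5p at -1.11 against -0.05 and miR-20a-5p at -3.11 against -1.62. The passengers miR-106b-3p (63.6%) and miR-93-3p (59.1%) had the highest GC content of the 10. With a GC correction in the fit the guides had a median of -1.70, against 0.07 over all tested miRNAs, with -1.93 for miR-20a-5p, -1.83 for miR-17-5p, -1.58 for miR-106b-5p and -1.05 for miR-93-5p, and edgeR called 0 members.

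**Figure D4:**
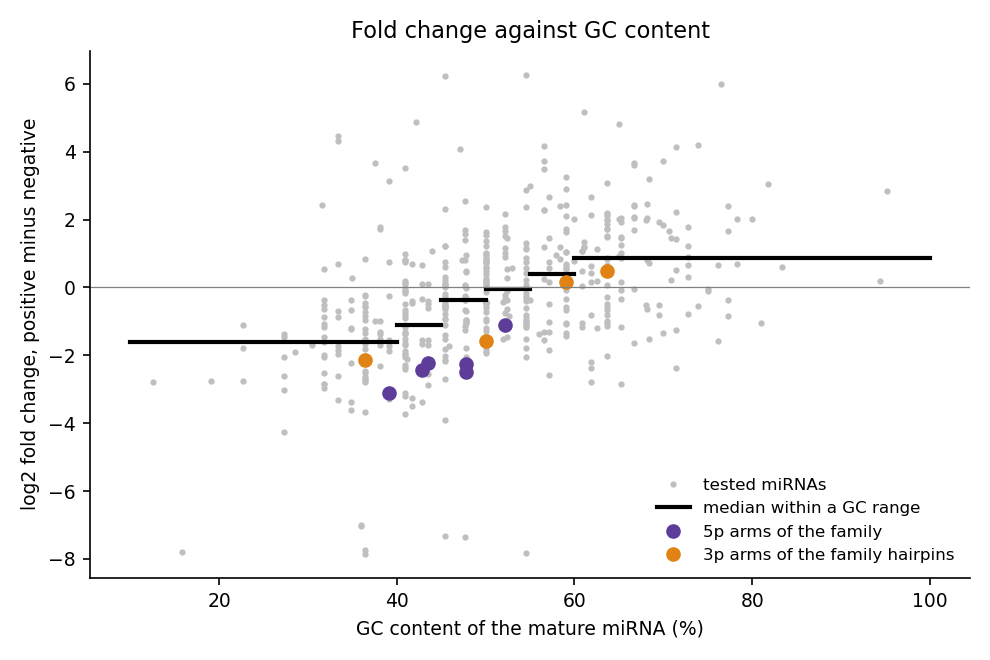
Log2 fold change, CD44v6-positive minus CD44v6-negative, against the GC content of the mature miRNA in percent for 499 tested miRNAs (grey), with the median within each GC range as a black line. The 6 guides (purple) run from -3.11 at 39.1% GC to -1.11 at 52.2% GC and lie under the line of their range, and the passengers miR-93-3p and miR-106b-3p (orange), whose positive values turned negative with a GC correction, lie at the right at 59.1 and 63.6% GC.

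The cluster partners give the neighbours of the family on the same transcripts. Of 18 listed arms 17 were in the table and 11 were tested, with 7 negative and 4 positive log2 fold changes and a median of -1.77. Groups did not overlap in 7 of the 11 with the CD44v6-positive samples lower, against 34.6% of all tested miRNAs, and in 3 with them higher, against 24.9%. edgeR called 0, DESeq2 called 3 lower (miR-18a-5p, miR-19a-3p and miR-19b-3p), against 5.25% of the miRNAs it tested, and limma-voom called miR-19a-3p (adjusted p = 0.0499). The arms of the miR-19 family, which have a seed of their own, were at -3.38 ± 0.53 for miR-19a-3p and -3.27 ± 0.63 for miR-19b-3p, and miR-18a-5p was at -2.88 ± 0.53. With a GC correction they were -1.79, -2.06 and -2.09. These lay on the same side as the guides miR-17-5p and miR-20a-5p. miR-92a-3p, the last hairpin's guide and the second most abundant entry of the table, lay on the other side, with a mean of 142118 ± 3541 CPM in CD44v6-positive cells, against 63211 ± 3842 CPM in CD44v6-negative cells. miR-18a-3p (1.20 ± 0.60) and miR-92a-1-5p (1.51 ± 0.94, overlapping groups) were also positive, although miR-92a-1-5p was at 0.028 without CD44v6-positive sample 2. Reads of miR-92a-3p and miR-19b-3p can come from a hairpin in miR-17-92 or from one in miR-106a-363, so they do not mark a single cluster.

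In miR-106b-25 the partner guide miR-25-3p, which shares its seed with miR-92a-3p, was at 7702 and 6780 CPM in CD44v6-positive samples, against 11164 and 10063 CPM in CD44v6-negative samples (-0.55 ± 0.40, edgeR adjusted p = 0.404). Its passenger miR-25-5p had 118 and 131 reads in CD44v6-positive samples, against 154 and 539 reads in CD44v6-negative samples, or 127 and 683 CPM against 29.5 and 97.7 CPM, which gave 2.65 ± 1.00 on the log2 scale (edgeR adjusted p = 0.141). That value was 1.28 without CD44v6-positive sample 2. The 5p members of this cluster thus ran from -2.44 to -1.11 while the arms of miR-25 were at -0.55 and 2.65, within 515 bases of the same intron. In miR-106a-363, miR-18b-5p had 4 and 0 reads in CD44v6-positive samples, against 137 and 67 reads in CD44v6-negative samples, fitted at -2.55 ± 1.02 on the log2 scale (edgeR adjusted p = 0.152). Of the other arms that only this cluster makes, miR-106a-3p, miR-20b-3p, miR-18b-3p and miR-363-5p had 0 reads in every sample and miR-19b-2-5p 1 read in 1 sample. miR-363-3p had 1 and 4 reads in CD44v6-positive samples, against 2 and 1 in CD44v6-negative samples. At the unequal depths that was 1.08 and 20.8 CPM against 0.383 and 0.181 CPM, higher in both CD44v6-positive samples, too few reads for the edgeR test and not called by DESeq2 (adjusted p = 0.0633). Over the 2 guides of each cluster the median log2 fold change was -2.68 in miR-17-92, -1.77 in miR-106b-25 and -2.37 in miR-106a-363.

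**Figure D5:**
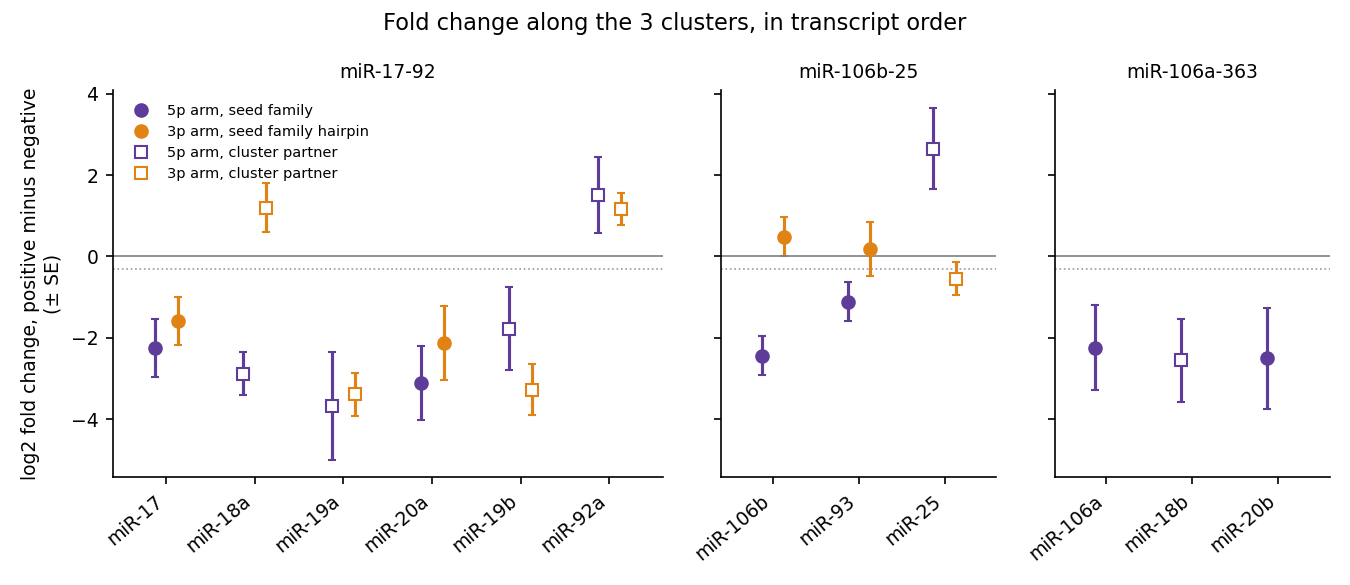
Log2 fold change, CD44v6-positive minus CD44v6-negative, with its standard error for the tested arms of each hairpin, in the order of the transcript, with filled circles for the family and open squares for cluster partners. The solid line marks 0 and the dotted line the median of all tested miRNAs, -0.31. The guides of the family lie between -3.11 and -1.11 in all 3 clusters, and miR-92a-3p, miR-18a-3p and miR-25-5p lie above 0, as do miR-106b-3p and miR-93-3p, whose signs turned with a GC correction.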

How the data were processed

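The deposited table gives raw counts of reads for each mature miRNA, with 1 column per combined sample per the file headers. The labels list 8 sequencing entries with 4 combined identities of 2 entries each, so n was 2 per group. The submitters' processing notes name Bowtie 0.12.9, cutadapt 1.10, CASAVA 1.8.2, DESeq2 and the build GRCh38, with roles not given in the sources used here. The deposited normalized table was not used.

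The counts were tested with edgeR 4.0.16 in R 4.3.3 (TMM, filterByExpr with minimum count 10 and minimum total count 15, glmQLFit and glmQLFTest), with Benjamini-Hochberg adjustment over all tested entries and a threshold of 0.05. The procedure was tested on simulated data. Each log2 fold change is CD44v6-positive minus CD44v6-negative, and its standard error is its size over the square root of F. Alternatives used DESeq2 1.42.0, limma 3.58.1 voom, other scalings and filters, a GC offset (loess within samples) and each sample left out. Arm ratios added 0.5 reads to each arm, and cluster ratios 0.5 to each sum. Exact permutation tests used SciPy 1.17.1 in Python 3.11.15. Sequences came from RefSeq and hairpin positions from GENCODE 29. The named entries were all members, all entries with a RefSeq sequence that carried the seed of the guides, and the cluster partners. Also named were the 5 nearest profiles to miR-17-5p among entries of at least 100 CPM. The members and lists were chosen with earlier results of these data known. Separate cultures are not stated for the samples of a group, so p-values reflect only the spread among these 4 samples, and that spread may be technical.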

Additional observations from a re-analysis of the deposited data

How the results depend on the processing

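edgeR's 0 calls among all tested miRNAs became 48 with total count scaling, 77 with no filter, 52 with DESeq2, 75 with DESeq2 on the entries edgeR tested (chosen after seeing the data) and 4 with limma-voom, and 26 to 55 with 1 sample left out. They stayed at 0 with RLE or upper quartile factors, a 10 CPM filter and the GC offset. Calls among the 10 members were all lower in CD44v6-positive cells. They were 2 with total count scaling, where 15 of 570 miRNAs were called lower, and 3 with no filter, where 53 of 1510 were. DESeq2 called 3 members in both forms, where 31 of 590 and 33 of 525 miRNAs were called lower. No member was called with RLE or upper quartile factors, the 10 CPM filter, the GC offset or limma-voom. The samples share only a number across groups (correlation of deviations 0.344, with 2 pairs, too few to decide a pairing). With the replicate block 228 of 570 miRNAs were called, 129 of them lower, and 7 of the 10 members, all lower. With the replicate block and GC offset 117 of 499 were called, 52 of them lower, and 4 of the 10 members, all lower. Of 148 member fold changes under alternatives 7 changed sign, all in 3p arms. miR-106b-3p was -0.17 with the GC offset and -0.18 with the replicate block and GC offset. miR-93-3p was -0.15 with no filter, -0.21 with the GC offset, -0.10 with both, and -0.36 to 1.08 with 1 sample left out. The log2 ratio of the summed guides ran from -2.86 to -1.32 with 1 sample left out (added after seeing the data). Of 97 ratios, shares and summed levels 7 changed sign, each with 1 sample left out. The arm ratio difference ran from -1.60 to 0.36 for miR-17 and from -1.70 to 0.32 for miR-20a. The share difference ran from -3.50 to 0.132 percentage points for miR-17-5p, from -0.154 to 0.00736 for miR-106a-5p, from -2.68 to 0.971 for miR-106b-5p and from -0.0270 to 0.0923 for miR-20b-5p. None of 160 partner fold changes changed sign. An arm ratio of miR-20a without pseudocount could not be had because of a count of 0. The causes were not tested. Depth limits miR-106a-5p, miR-20b-5p and miR-20a-3p most, since 1 read was 1.08 and 5.21 CPM in the CD44v6-positive samples.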

Other observations

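The 5 tested miRNAs outside the family and its clusters whose profile over the 4 samples was nearest to that of miR-17-5p were miR-181c-5p, miR-24-3p, miR-660-5p, miR-301a-3p and miR-141-3p, among entries with a mean of at least 100 CPM. Likeness was the Euclidean distance between log2(CPM + 1) values centred on their mean over the 4 samples, and these lay at 0.407, 0.426, 0.450, 0.498 and 0.537. By the same measure miR-20a-5p, from the same transcript, lay at 0.998, miR-93-5p at 1.34 and miR-106b-5p at 1.48, so each of the 5 was nearer to miR-17-5p than these guides were. miR-141-3p, a miR-200 family member of epithelial cells, had 1940 and 1173 CPM in CD44v6-positive samples, against 11210 and 5346 CPM in CD44v6-negative samples. miR-24-3p, from the clusters that also make miR-23 and miR-27, had 644 and 224 CPM in CD44v6-positive samples, against 2107 and 901 CPM in CD44v6-negative samples. With 4 points a small distance says only that these values lie close.

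miR-18b-5p, the miR-106a-363 partner with the seed of miR-18a-5p, had 2.63% of the reads of miR-18a-5p in CD44v6-positive sample 1 and 0 of 20 reads in sample 2, which allows up to 15%, against 2.50 and 1.27% in the CD44v6-negative samples. The reads of miR-20b-5p were 0.0438 and 0.769% of those of miR-20a-5p in CD44v6-positive samples (1 read each), against 0.0808 and 0.106% in CD44v6-negative samples. In CD44v6-positive samples these shares rest on 4 reads or fewer.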
